A study of Mus musculus with 8 samples.

Results

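The cytosolic ribosome of mammals is built from 2 subunits, and its protein components are encoded by the *Rpl* genes (large subunit) and the *Rps* genes (small subunit). The genes described here were taken from the deposited FPKM table (fragments scaled to transcript length and to the mapped fragments of the library) by their names: *Rpl* or *Rps* followed by a number and at most 1 letter, together with *Rplp0*, *Rplp1*, *Rplp2* and *Rpsa*, with pseudogenes named -ps left out. This gave 81 genes of 24385 features, 49 of the large and 32 of the small subunit, on 19 chromosomes, with 14 genes on chromosome 7, 7 on chromosome 11 and 4 on X. The rule uses names and no measured value. Ribosomal proteins coded elsewhere in the nomenclature (*Fau*, *Rps3a1*, *Rpl22l1*, *Rpl36al* and others) fell outside the naming rule and are given separately.

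RNA sequencing was performed on hearts of C57BL/6 mouse embryos at embryonic day (E) 8.5 and E9.5, with 2 libraries for each of 4 groups. The controls are labelled wild type (WT), and the study describes them as *Dgcr8* loxP/loxP; *Rosa26* mT/mG/+ embryos without Cre, so that both arms carried the floxed allele and the membrane reporter. The knockout hearts (cKO) are labelled Mesp1Cre/+; Dgcr8-/- and, by the study, carried *Mesp1*-Cre on 1 allele in addition to the floxed gene and the reporter. *Mesp1*-Cre acts in the early cardiovascular progenitors and their progeny, so heart cells outside that lineage kept *Dgcr8*, which encodes the partner of Drosha in microRNA processing. *Dgcr8* was 7.10 and 8.6 FPKM (WT, E8.5), 1.64 and 4.67 (cKO, E8.5), 3.49 and 3.23 (WT, E9.5) and 1.15 and 1.77 (cKO, E9.5), lower in both cKO libraries than in both WT libraries at each stage.

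Ribosomal proteins are needed in nearly equal numbers, and their genes are among the most strongly expressed of any growing tissue. Their mRNAs in mammals typically begin with a cytosine followed by a run of pyrimidines, the 5′ terminal oligopyrimidine tract, through which mTORC1 and the RNA-binding protein LARP1 control their translation. Free Rpl5 and Rpl11, bound to the 5S rRNA, can inhibit Mdm2 when ribosome assembly fails, which links the family to p53. The comparison of large with small subunit genes asks whether the components of the 2 subunits were kept in proportion over the 4 groups.

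The start sites of 60 of the 81 genes were found in the RefSeq promoter table (GRCm38.p6), and the windows below run from 10 bases before to 20 bases from the annotated start. They are shown for genes named further on, and 1 run of a C followed by at least 4 C or T on the transcribed strand is in capitals: the run read from the annotated start base where there is one, otherwise the longest that begins within 10 bases of it. Pyrimidines before the start base and further runs are left in lower case. The first 5 windows have such a run at the annotated first base of the transcript.
Rpl38, GRCm38.p6, chr11:114668570-114668599, plus strand: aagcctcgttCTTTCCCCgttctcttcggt
Rplp2, GRCm38.p6, chr7:141447641-141447670, plus strand: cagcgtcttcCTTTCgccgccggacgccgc
Rps6, GRCm38.p6, chr4:86857348-86857377, minus strand: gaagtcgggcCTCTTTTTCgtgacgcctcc
Rps15a, GRCm38.p6, chr7:118116128-118116157, minus strand: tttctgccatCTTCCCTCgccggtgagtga
Rps27, GRCm38.p6, chr3:90213629-90213658, minus strand: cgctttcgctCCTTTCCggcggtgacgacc
The run lies within 10 bases of the annotated start in the next 3.
Rpl13a, GRCm38.p6, chr7:45128726-45128755, minus strand: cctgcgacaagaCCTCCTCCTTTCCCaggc
Rps2, GRCm38.p6, chr17:24720053-24720082, plus strand: gtcgagatctcgcgCTTCTTggagcactat
Rps26, GRCm38.p6, chr10:128626487-128626516, minus strand: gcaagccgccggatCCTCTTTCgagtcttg
The next 4 hold no such run within 10 bases of the annotated start.
Rpl4, GRCm38.p6, chr9:64173377-64173406, plus strand: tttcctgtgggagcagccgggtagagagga
Rpl5, GRCm38.p6, chr5:107900518-107900547, plus strand: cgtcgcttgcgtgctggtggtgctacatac
Rpl13, GRCm38.p6, chr8:123102340-123102369, plus strand: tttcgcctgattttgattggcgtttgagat
Rpl23, GRCm38.p6, chr11:97782420-97782449, minus strand: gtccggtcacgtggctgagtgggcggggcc
Of the 60 ribosomal protein promoters, 12 (20%) carried the run at the annotated start base, against 2.55% of the 7660 promoters of all tested genes. Within 10 bases of the start it was found in 36 (60%), against 32.3%. The large subunit genes held it in 22 of 37 and the small subunit genes in 14 of 23. In the whole window of 300 bases, searched on both strands, the ETS core CCGGAAG occurred in 24 of the 60 (40%, against 20.5% of all tested genes) and the YY1 core AAGATGG in 9 (15%, against 7.96%); these overlap where the last 3 letters of the first are the first 3 of the second. The GC box GGGCGG occurred in 35 (58.3%, against 66.4%) and TATAAA in 6 (10%, against 7.04%). A match is only an occurrence of these letters, and a window without one says nothing of the factor or of other start sites.

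Sequencing depth is not known, because FPKM holds no counts. The steps between the lowest values put the libraries within 1.45-fold of each other in relative depth, as a rough estimate. In the 7 libraries set against E8.5 WT replicate 1, the most frequent ratio held only 1.57 to 3.03% of the genes used. FPKM is relative to the library, and 10018 genes passed the filter (mean of 1 FPKM or more) and were tested. Their median level was 9.90 and 9.55 (WT, E8.5), 7.75 and 7.62 (cKO, E8.5), 4.31 and 4.48 (WT, E9.5) and 4.50 and 3.85 (cKO, E9.5) FPKM. Each change below is therefore set beside that of all tested genes. All 10 cardiomyocyte markers were measured, and their summed level was 25792 and 42635 FPKM (WT, E8.5), 56894 and 39229 (cKO, E8.5), 58683 and 56854 (WT, E9.5) and 80139 and 80274 (cKO, E9.5), higher in cKO at E9.5. At E9.5 the endothelial sums (8 genes) were 52.2 and 66.9 FPKM in WT and 79.4 and 78.6 in cKO, and the proepicardial sums (4 genes) 34.1 and 18.8 FPKM in WT and 9.09 and 8.69 in cKO. Neither list overlapped between the genotypes. Primitive erythroid sums (7 genes) ranged from 7786 to 39587 FPKM and yolk sac sums (8 genes) from 771 to 6957 FPKM, and each differed more than 2-fold between replicates of both E8.5 groups. The part of these differences in the results below was not tested. E8.5 cKO replicate 2 stood apart by its decidual markers, whose summed level (7 genes) was 6617 FPKM against 514 to 2137 in the other 7 libraries. These were *Prl8a2*, *Prl3c1*, *Bmp8a*, *Cryab*, *Dcn*, *Wnt4* and *Hand2*, of which 5 passed the filter. *Hand2* is also cardiac, so the sum is not specific to decidua. E8.5 WT replicate 1 and E8.5 cKO replicate 2 had the highest myeloid sums (6 genes, *Ngp* at 0 in every library), 363 and 268 FPKM against 5.80 to 91.5. In whole hearts, a cell type that is less frequent and less RNA per cell cannot be told apart. With 2 libraries against 2, an exact permutation test of a single value cannot give a two-sided p below 0.333, so tests rest on limma (moderated linear models) fitted over all tested genes of the 4 groups. Calls required both a 1.5-fold change and an adjusted p below 0.05.

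Ribosomal protein transcripts were abundant in all 8 libraries. As a share of the summed FPKM of loci of at least 300 bp, the 81 genes took 20.1 and 19.7% (WT, E8.5), 18.8 and 24.2% (cKO, E8.5), 25.5 and 20.7% (WT, E9.5) and 23.1 and 20.5% (cKO, E9.5). The highest share was in E9.5 WT replicate 1 and the lowest in E8.5 cKO replicate 1, and the ranges of the 4 groups overlapped except that both E9.5 libraries of each genotype lay above both E8.5 WT libraries. Of all summed FPKM they took 16.9 and 16.5% (WT, E8.5), 11.5 and 11.98% (cKO, E8.5), 19.8 and 16.9% (WT, E9.5) and 10.5 and 16.8% (cKO, E9.5), and loci under 300 bp took 15.7 and 16.2% (WT, E8.5), 38.6 and 50.5% (cKO, E8.5), 22.4 and 18.4% (WT, E9.5) and 54.5 and 18.3% (cKO, E9.5). Of the 81 genes, 77 were above 100 FPKM in every library and 65 had a mean above 1000 FPKM. Their order was similar throughout: Spearman's rho of FPKM over the 79 tested members was 0.860 to 0.982 over the 28 pairs of libraries, a description that shares transcript length and library chemistry across points.

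**Figure D1:**
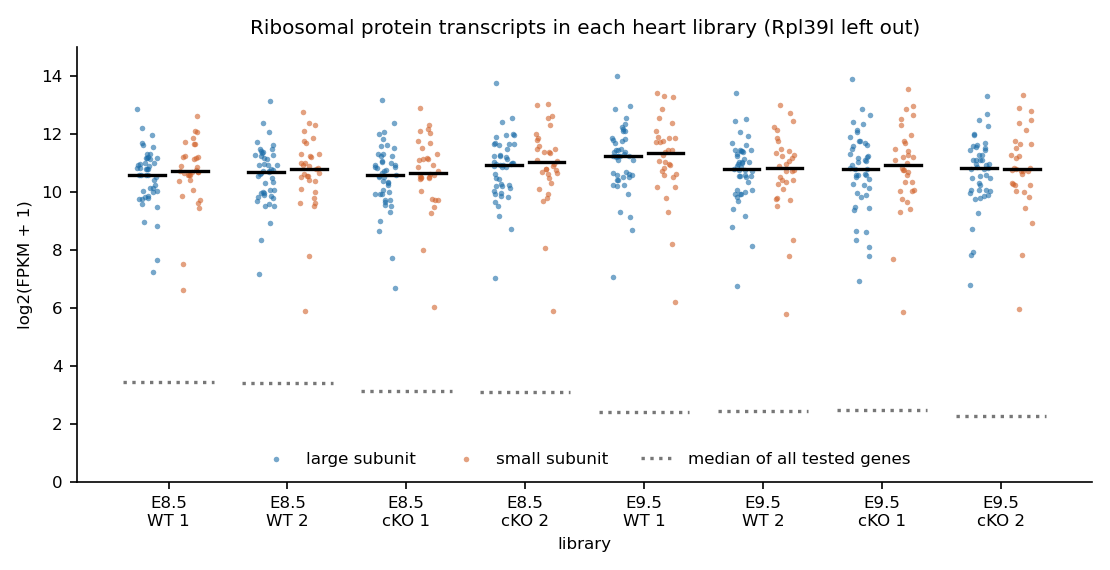
Levels of the ribosomal protein transcripts (vertical axis, log2(FPKM + 1)) in each of the 8 libraries (horizontal axis), with 1 point a gene, large subunit in blue and small subunit in orange. Black bars are the medians of the tested genes of each subunit, *Rpl39l* included although its point is left out, and dotted lines are the median of all 10018 tested genes, which was between 3.85 and 9.90 FPKM and lower at E9.5.

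The highest mean level, per length, was that of *Rpl41*, which encodes the smallest protein of the ribosome. It was 7352 and 9090.5 FPKM (WT, E8.5), 9328 and 13802 (cKO, E8.5), 16375 and 10813 (WT, E9.5) and 15140.3 and 10156 (cKO, E9.5). *Rps27* (mean 8799 FPKM) and *Rps26* (6639 FPKM) followed. At the other end stood *Rpl10l*, the autosomal retrogene copy of X-linked *Rpl10* known from the testis, *Rpl3l*, the paralog of *Rpl3* of adult heart and skeletal muscle, and *Rpl39l*, another paralog known from the testis. *Rpl10l* and *Rpl3l* stayed under 1 FPKM and were not tested. *Rpl39l* passed the filter with a mean of 1.03 FPKM only because of 4.94 FPKM in E8.5 cKO replicate 2, since the other 7 libraries held 0 to 1.32 FPKM. Their partners *Rpl10* (2963 FPKM), *Rpl3* (2100.1 FPKM) and *Rpl39* (2713 FPKM) carried over 99% of each pair in every library. Besides these 3, 4 members had a mean under 300 FPKM: *Rpl12* (298), *Rps4l* (233), *Rpl22* (124) and *Rps15a* (65.1 FPKM).

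Levels varied little between libraries for most members. The highest library was less than 2-fold above the lowest for 60 genes, and only 4 tested genes with no library at 0 reached 3-fold: *Rps2*, *Rpl7*, *Rpl5* and *Rpl30*. The most even was *Rpl14*, at 1369 and 1301 FPKM (WT, E8.5), 1296 and 1427 (cKO, E8.5), 1606 and 1284 (WT, E9.5) and 1379.6 and 1423 (cKO, E9.5). Libraries differed by a common shift: 75 of the 79 tested members were higher in E9.5 WT replicate 1 than in replicate 2, and 69 were higher in E8.5 cKO replicate 2 than in replicate 1. E9.5 WT replicate 1 held the highest value of 54 members.

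The large and small subunit genes stayed in similar proportion, with a ratio of 1.22 to 1.33 over the 8 libraries. The ratio of summed FPKM, large to small, was 1.27 and 1.28 (WT, E8.5), 1.27 and 1.25 (cKO, E8.5), 1.28 and 1.33 (WT, E9.5) and 1.27 and 1.22 (cKO, E9.5). The highest and the lowest ratio both occurred at E9.5, in WT replicate 2 and in cKO replicate 2. The median level of the large subunit genes was 1549 and 1639.9 (WT, E8.5), 1548 and 1969 (cKO, E8.5), 2407 and 1772 (WT, E9.5) and 1791 and 1827 (cKO, E9.5) FPKM, and that of the small subunit genes was 1677 and 1790.1 (WT, E8.5), 1617 and 2071 (cKO, E8.5), 2566 and 1828 (WT, E9.5) and 1945 and 1754 (cKO, E9.5) FPKM. The difference of the medians of log2(FPKM + 1), large minus small, was negative in every library but E9.5 cKO replicate 2. Between groups the median change of the large subunit genes exceeded that of the small by 0.003 (E8.5 cKO versus WT), −0.02 (E9.5 cKO versus WT), 0.02 (E9.5 versus E8.5 in WT) and −0.01 (E9.5 versus E8.5 in cKO) on the log2 scale. No difference between the subunits was tested. By library the large minus small difference was −0.11 and −0.13 (WT, E8.5), −0.06 and −0.07 (cKO, E8.5), −0.09 and −0.04 (WT, E9.5) and −0.12 and 0.06 (cKO, E9.5), so that it was nearer to 0 in both cKO than in both WT libraries at E8.5, while the genotypes overlapped at E9.5. After quantile normalization, which forces all libraries to the same distribution, this difference was 0.07 for the E8.5 genotype comparison and 0.18 for the WT stage comparison.

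The question at E8.5 was whether loss of *Dgcr8* had altered ribosomal protein transcripts at the looping heart tube. No member was called in either direction, and none had an unadjusted p under 0.05. Over all tested genes, 0.00998% were called higher in cKO and 0% lower. The median log2 change of the 79 members, cKO minus WT, was 0.14 against −0.28 for all tested genes, a relative shift of 0.42 (replicate SD of this quantity 0.23). Above the median of all tested genes were 76 members. Quantile normalization gave a relative shift of −0.10, but it cannot check this shift. It gives every library the same distribution, and the members lie near the top of it, so a shift they share is largely removed by construction. In 27 of the 79 (34.2%) both cKO libraries were above both WT libraries, where 2.54% of all tested genes did so, and in 1 (*Rpl22*) both were below, against 40.1% of all tested genes. Taken library by library, the relative shift was 0.27 and 0.16 for cKO replicate 1 against the 2 WT libraries and 0.66 and 0.58 for cKO replicate 2, the library with the high decidual markers, whose part in the shift was not tested. Without replicate 2 the shift was 0.21. Scaled to the sum over loci of at least 300 bp, the median log2 change of the members was 0.04 and that of all genes −0.37, a relative shift of 0.41.

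The largest differences at E8.5 lay in single libraries. *Rps2*, a small subunit protein near the mRNA entry channel, was 780.1 and 891 FPKM in WT and 707 and 4078 in cKO, so that the cKO libraries lay on either side of WT (log2 change 1.03, SE 0.75, limma adjusted p = 0.626). Its replicate gap in cKO was the widest of any member in any group, and without cKO replicate 2 its log2 change was −0.24. *Rps28* was 3699 and 5031 FPKM in WT and 4601 and 8302 in cKO, with a log2 change of 0.52 (SE 0.37, adjusted p = 0.622). Its log2 change was 0.09 without cKO replicate 2 and 0.94 without cKO replicate 1. *Rpl39l* had a log2 change of 0.68 (SE 0.52), again set by replicate 2, and was −0.23 without it. The lowest changes were those of *Rps25*, which takes part in initiation on viral internal ribosome entry sites, at −0.35 (SE 0.27), *Rpl22* at −0.34 (SE 0.26) and *Rps15a* at −0.30 (SE 0.31). *Rpl22* was 149 and 143 FPKM in WT and 102 and 129 in cKO, below WT in both. All 3 of these turned positive after median-ratio scaling, at 0.00616, 0.018 and 0.055.

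At E9.5, when atria and ventricles are distinct, no member was called between the genotypes. At least 1.5-fold lower in cKO were 10 of the 79 (12.7%) and at least 1.5-fold higher 0, where 15.3 and 9.09% of all tested genes were. The median log2 change of the 79 members was −0.13 against −0.07 for all tested genes, a relative shift of −0.06 that is smaller than its replicate SD of 0.23. The shift was −0.26 against WT replicate 1 and 0.14 to 0.20 against WT replicate 2, so that its sign followed the WT library. The calls over all tested genes were few (0.17% higher and 0.00998% lower). Of the members, 6 (7.59%) had an unadjusted p under 0.05, all lower in cKO, where 10.5% of all tested genes were lower and 5.27% higher at that p: *Rpl7*, *Rpl5*, *Rpl21*, *Rpl30*, *Rpl23* and *Rps27l*. Both cKO libraries lay below both WT libraries for 23 members (29.1%, 14 large and 9 small subunit), which is near the 31.1% of all tested genes. Both lay above for 2 (2.53%), *Rpl13a* and *Rps19*, against 21% of all tested genes.

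The lowest change at E9.5 was that of *Rpl7*, a large subunit protein. *Rpl7* was 1948 and 1976 FPKM (WT, E8.5), 1689 and 2027 (cKO, E8.5), 1528 and 1772 (WT, E9.5) and 394 and 1045 (cKO, E9.5). The genotypes did not overlap at E9.5, and the 2 cKO libraries differed from each other by more than the higher of them differed from the nearer WT library (log2 change −1.36, SE 0.42, adjusted p = 0.18). *Rpl5*, which carries the 5S rRNA together with Rpl11, was 1446 and 1485 FPKM in WT and 403 and 951 in cKO (log2 change −1.24, SE 0.42, adjusted p = 0.220). *Rpl21* was 638 and 577 FPKM in WT and 222 and 420.3 in cKO (log2 change −0.99, SE 0.35, adjusted p = 0.232). In each of these the low value was deepest in cKO replicate 1. *Rpl30* was 560.1 and 437 FPKM in WT and 276 and 242 in cKO and is the exception, with its 2 cKO libraries close together.

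*Rpl23*, another protein known to bind Mdm2, was 1656 and 1460.0 FPKM in WT and 711 and 992 in cKO, a log2 change of −0.89 (SE 0.28, adjusted p = 0.191). *Rpl4*, which lines part of the peptide exit tunnel, was 2525 and 2701 FPKM in WT and 941 and 2190.0 in cKO. The replicate gap of *Rpl4* in cKO left its 95% interval spanning 0 (−1.90 to 0.17 on the log2 scale). *Rps27l*, a p53-inducible paralog of *Rps27*, was 1951 and 1678 FPKM in WT and 1054 and 1204 in cKO (log2 change −0.68, SE 0.23, adjusted p = 0.221). *Rps4x*, the X-linked small subunit gene, was 1581 and 1346 FPKM in WT and 679 and 1274 in cKO, below WT in both. Without cKO replicate 1 the log2 changes of *Rpl7*, *Rpl5* and *Rpl21* were −0.65, −0.62 and −0.53, and without replicate 2 they were −2.06, −1.86 and −1.45. At the upper end, *Rps2* had a log2 change of 0.52 (SE 0.75), *Rpl13a* of 0.41 (SE 0.24) and *Rps19*, a gene mutated in Diamond-Blackfan anaemia, of 0.39 (SE 0.31). Without WT replicate 2 these were 0.02, 0.17 and 0.15, and without WT replicate 1 they were 1.02, 0.65 and 0.64. *Rpl13a*, known for its part in interferon-gamma-dependent translational silencing, was 2631 and 1888 FPKM in WT and 3123 and 2791 in cKO, both cKO libraries above both WT libraries.

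**Figure D2:**
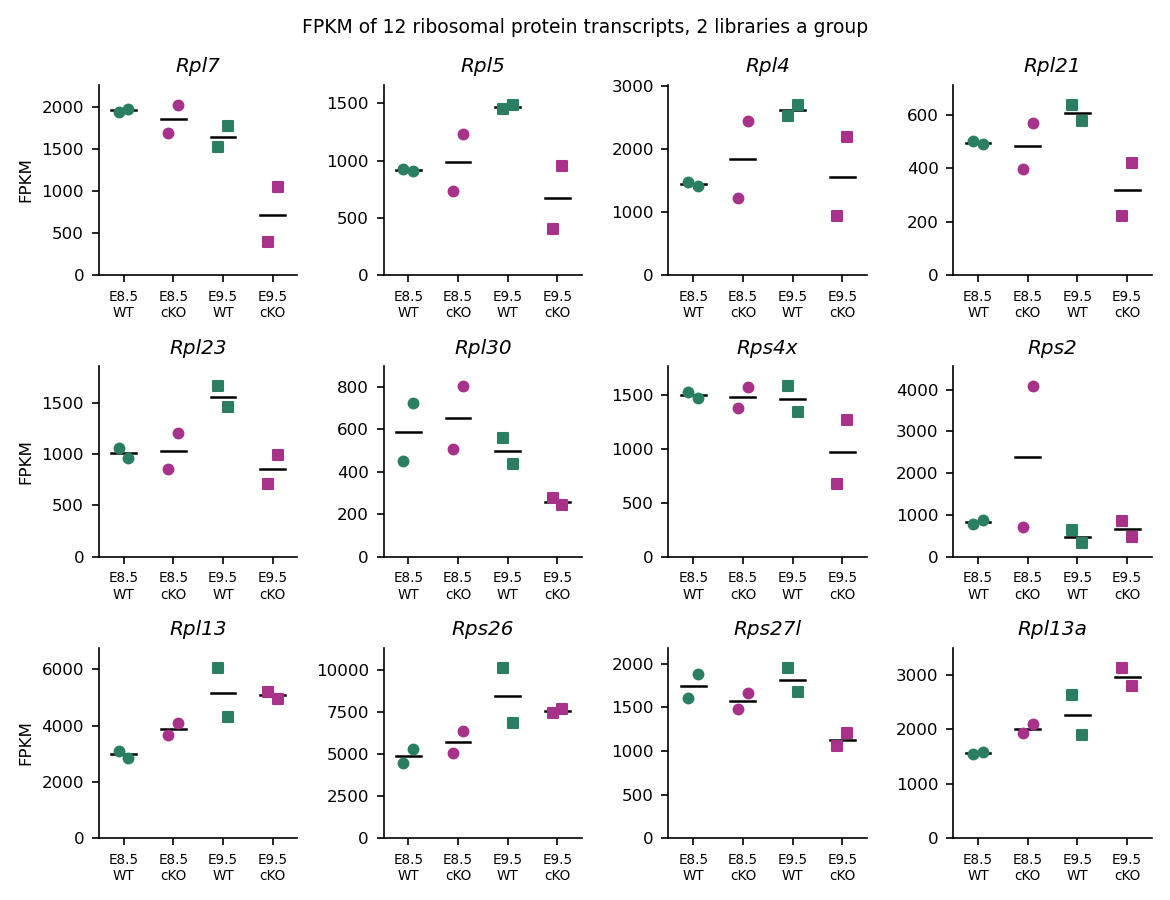
FPKM (vertical axes, each starting at 0) of 12 ribosomal protein transcripts in the 4 groups (horizontal axes), with 1 point a library, WT in green, cKO in magenta, circles for E8.5 and squares for E9.5, and a black bar at the mean of the 2 libraries. *Rpl7*, *Rpl5*, *Rpl4*, *Rpl21*, *Rpl23*, *Rps27l* and *Rps4x* are lower in both E9.5 cKO libraries than in both E9.5 WT libraries, and *Rps2* reaches 4078 FPKM in 1 library of E8.5 cKO.

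The changes of members were correlated with the GC content of their transcripts, and so were differences between replicates. Over 77 members with a transcript sequence, Spearman's rho of the E9.5 genotype change with GC content was 0.378, and over 9122 tested genes it was 0.405. The difference between the 2 E9.5 WT libraries had rho 0.550 over members and 0.627 over all genes, and that between the 2 E9.5 cKO libraries 0.56 and 0.18. Genes are not independent replicates, and these values are given as a description. The 25 members of lowest GC content (41.3 to 49.1%) had a median log2 change of −0.26 at E9.5, and the 25 of highest GC content (54.0 to 62.4%) one of −0.003. *Rpl5* (42.7% GC), *Rpl7* (45.8%) and *Rpl23* (46.4%) belonged to the first set, and *Rpl30* (55.3%) to the second. With the GC trend of each library removed, the log2 changes at E9.5 were −1.03 for *Rpl7* and −0.91 for *Rpl5*, an adjustment chosen after the data were seen. Members' transcripts were short, with a median length of 855 bp against 2766 bp for all tested genes.

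**Figure D3:**
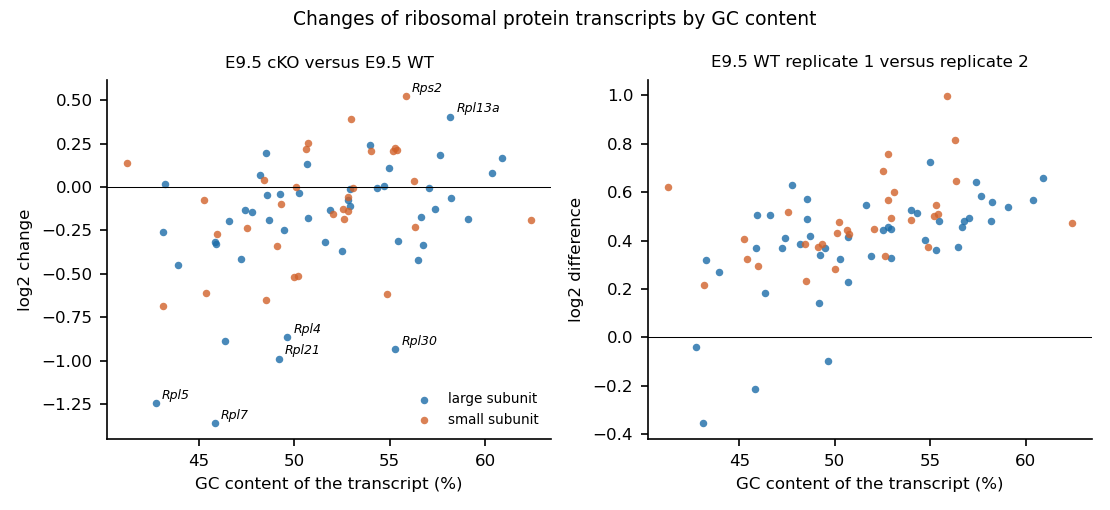
GC content of the transcript (horizontal axes, %) and the log2 change of E9.5 cKO versus WT (left) or the log2 difference between E9.5 WT replicates 1 and 2 (right), with 1 point for each of 77 ribosomal protein transcripts, large subunit in blue and small subunit in orange. Low values gather on the low GC side in both panels, with rho 0.378 on the left and 0.550 on the right.

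Over the day of development in WT hearts the ribosomal protein transcripts had a higher median change than all tested genes. Their median log2 change was 0.37, against −0.84 for all tested genes, and 78 of 79 members were above the median of all tested genes. No set of genes of similar level was compared, here or in the other comparisons. A shift common to abundant transcripts therefore cannot be told apart from one particular to these genes. The relative shift was 1.2 (replicate SD 0.23) and ranged from 0.89 to 1.46 over the 4 pairs of libraries. It was −0.16 after quantile normalization, which by construction removes most of a shift shared by genes near the top of each library. Both E9.5 libraries lay above both E8.5 libraries for 48 members (60.8%), against 5.43% of all tested genes, and below for 4 (5.06%: *Rpl7*, *Rpl22*, *Rpl39l*, *Rps2*), against 80.1%. Called higher were 3 members (3.8%), *Rpl13* and *Rps26* among them, against 1.4% of all tested genes, and called lower were 0 (8 members had an unadjusted p under 0.05, all higher), against 46.7%. With values scaled to the sum over loci of at least 300 bp, the median log2 change of the members was 0.15 and that of all genes −1.01, a relative shift of 1.16, and 0 members were called higher (1.18% of all genes). After median-ratio scaling the medians were 1.37 and −0.04, and 43 members (54.4%) were called higher, against 3.2% of all tested genes. With the GC trend of each library removed they were 1.13 and −0.01, and 34 of 77 (44.2%) were called higher, against 3.39%.

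*Rpl13*, a large subunit protein, was 3114 and 2850.2 FPKM at E8.5, reached 6042 and 4289 at E9.5, and rose by 0.77 (SE 0.24, adjusted p = 0.0325) on the log2 scale. *Rps26*, a small subunit protein at the mRNA exit channel, was 4444 and 5306 FPKM at E8.5 and 10097 and 6805 at E9.5 and rose by 0.77 (SE 0.26, adjusted p = 0.0415). The stages did not overlap for either gene, and in each E9.5 WT replicate 1 was the highest library of the 4. Both calls were lost when E9.5 WT replicate 1 or either E8.5 WT library was left out, with adjusted p from 0.1 to 0.200, and that of *Rps26* also without either E9.5 cKO library, which enter through the shared spread (adjusted p = 0.0593 in each case). Without each of these 3 WT libraries, 0 members were called higher, and of all tested genes only 10 (without E9.5 WT replicate 1), 4 and 16 (without E8.5 WT replicate 1 or 2), against 140 with all libraries. After quantile normalization the log2 changes of *Rpl13* and *Rps26* were 0.07 and 0.03 (adjusted p = 0.883 and 0.941), and scaled to loci of at least 300 bp they were 0.56 and 0.56. The call of *Rps26* was also lost with a replicate block, in a fit of the compared groups alone and without the variance trend (limma adjusted p = 0.0678, 0.0646 and 0.0504). *Rpl4* had the largest log2 change, 0.85 (SE 0.45, adjusted p = 0.134), from 1475 and 1414 to 2525 and 2701 FPKM, and *Rps28* had 0.78 (SE 0.37). The lowest were *Rps2* at −0.88 (SE 0.75; 780.1 and 891 FPKM at E8.5 and 638 and 319.6 at E9.5), *Rpl39l* at −0.67 and *Rpl22* at −0.29. *Rps2* and *Rpl22* turned positive after median-ratio scaling (0.12 and 0.70), and *Rpl22* and *Rpl39l* after quantile normalization (0.15 and 0.05).

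In cKO hearts the median of the members over the same interval was close to 0 on the deposited scale. Their median log2 change from E8.5 to E9.5 was 0.07, against −0.64 for all tested genes, a relative shift of 0.71 that ranged from 0.48 to 0.87 over the 4 pairs of libraries and was −0.14 after quantile normalization. Scaled to the sum over loci of at least 300 bp, the median of the members turned to −0.04 and that of all genes to −0.72, a relative shift of 0.68, and 4 members (5.06%) were called lower, against 35.5% of all genes. After median-ratio scaling the median of the members was 0.83, against −0.05 for all tested genes, and 6 members were called higher (7.59%, against 3.99%). With the GC trend of each library removed it was 0.59, against −0.02. Both E9.5 libraries lay above both E8.5 libraries for 23 members (29.1%; 7.05% of all tested genes) and below for 7 (8.86%; 62.7%). None was called higher (2.05% of all tested genes; 1 member had an unadjusted p under 0.05), and 3 of 79 were called lower (3.8%, against 28.5%): *Rpl7*, *Rpl30* and *Rpl39l*. *Rpl7* was 1689 and 2027 FPKM at E8.5 and 394 and 1045 at E9.5 and fell by 1.53 on the log2 scale (SE 0.42, adjusted p = 0.0330). *Rpl30* was 509 and 801 FPKM at E8.5 and 276 and 242 at E9.5 and fell by 1.30 (SE 0.34, adjusted p = 0.0293), although its sum with the co-located row *Gm12191* was 1343 and 1923 FPKM at E8.5 and 1282 and 1466 at E9.5 (log2 change −0.23). The stages did not overlap for either gene. The call of *Rpl39l* (log2 change −1.6, adjusted p = 0.0498) rests on the same 4.94 FPKM in E8.5 cKO replicate 2 that took it past the filter, and was lost without that library (log2 change −0.69). The calls of *Rpl7* and *Rpl30* were lost without either E9.5 cKO library (adjusted p from 0.0613 to 0.133), where the log2 change of *Rpl7* was −0.82 without replicate 1 and −2.23 without replicate 2, and that of *Rpl30* −1.40 and −1.21. They were also lost without E8.5 cKO replicate 2 (log2 changes −1.39 and −0.97, adjusted p = 0.0904 and 0.0758), after quantile normalization (−1.57 and −1.09, adjusted p = 0.0545 and 0.112) and after median-ratio scaling (−0.77 and −0.55). Without either E9.5 cKO library at most 1 of all tested genes was called lower. With the GC trend of each library removed, an adjustment added after the data were seen, the log2 change of *Rpl7* was −0.61 (adjusted p = 0.388) and that of *Rpl30* −1.01 (adjusted p = 0.162). Leaving out either E8.5 WT library or E8.5 cKO replicate 1 also ended the call of *Rpl7* (log2 changes −1.53 to −1.66, adjusted p from 0.0565 to 0.0568), and leaving out any library but E8.5 cKO replicate 1 that of *Rpl39l*. At the upper end stood *Rpl36* (0.56, SE 0.29) and *Rpl13a* (0.55, SE 0.24), neither of which was called.

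**Figure D4:**
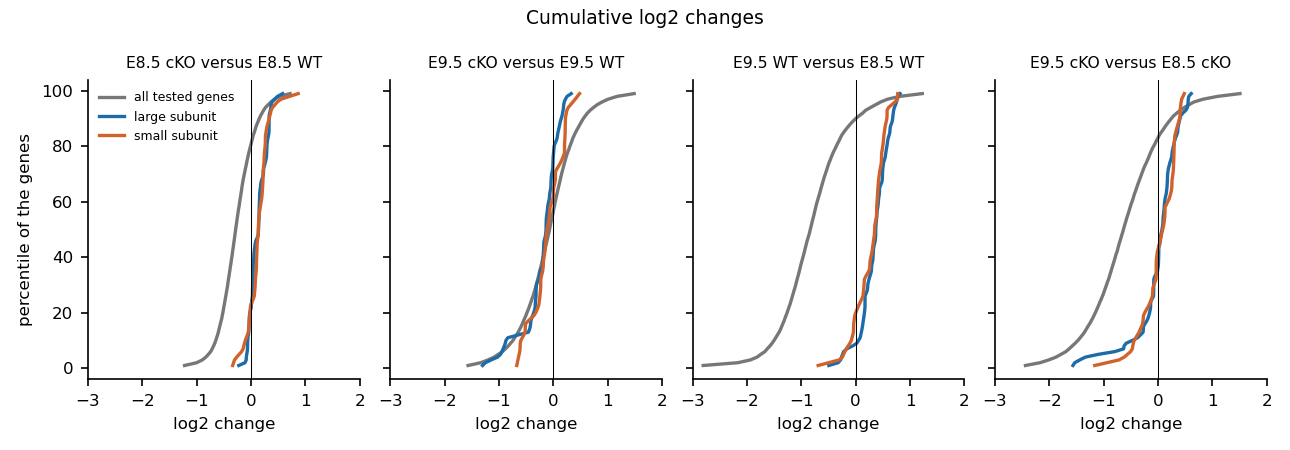
Cumulative distributions of the log2 change (horizontal axes) in the 4 comparisons, as percentiles (vertical axis) over all 10018 tested genes (grey), the tested large subunit genes (blue) and the tested small subunit genes (orange). The subunit curves lie close to each other in every panel, right of the grey curve in both stage comparisons and at E8.5, and close to it at E9.5 cKO versus WT. After quantile normalization the medians relative to all genes are −0.16 (WT stage), −0.14 (cKO stage) and −0.10 (E8.5). That scaling gives every library the same distribution and cannot check a shift of genes near its top.

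The difference between the genotype effects at the 2 stages was tested as an interaction. No member was called in either direction (0.0299% of all tested genes higher and 0.00998% lower), and none had an unadjusted p under 0.05. The median over members, effect at E9.5 minus effect at E8.5, was −0.30, against 0.18 for all tested genes, a relative shift of −0.48 that was 0.067 after quantile normalization. The lowest were *Rpl5* at −1.30 (SE 0.59, adjusted p = 0.713), *Rpl7* at −1.27 (SE 0.59) and *Rpl4* at −1.12 (SE 0.63), and the highest *Rps19* at 0.44 (SE 0.44), *Rps18* at 0.32 and *Rpl22* at 0.30. Leaving out each library gave −1.91 to −0.68 for *Rpl5*, −1.97 to −0.57 for *Rpl7* and −1.73 to −0.51 for *Rpl4*. It gave 0.10 to 0.79 for *Rps19*, 0.06 to 0.57 for *Rps18* and 0.13 to 0.47 for *Rpl22*. The changes of these genes at E9.5 were thus not shown to differ from those at E8.5.

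Values at E9.5 are given here for members with a known common or particular role. In the stalk of the large subunit, which recruits elongation factors, *Rplp0* was 4853 and 3867 FPKM at E9.5 in WT and 4501 and 4102 in cKO, *Rplp1* was 2407 and 1542 in WT against 2175 and 1429 in cKO, and *Rplp2* was 4426 and 2675 in WT against 4340.4 and 3168 in cKO. All 3 overlapped between genotypes at E9.5, with log2 changes of −0.01, −0.13 and 0.11. Of the 2 proteins that carry the 5S rRNA, *Rpl11* was 2869 and 2104 FPKM in WT and 2384 and 2169.5 in cKO and overlapped (log2 change −0.11, SE 0.28), while *Rpl5* did not, and a difference between the 2 genes was not tested. *Rpl10a*, *Rpl38* and *Rps25*, genes studied for their effects on the translation of particular mRNAs, had log2 changes at E9.5 of 0.18, −0.18 and −0.27, each with an SE of 0.27 or more. *Rps6*, the substrate of S6 kinase downstream of mTORC1, was 2112 and 1737 FPKM in WT and 1053 and 1695 in cKO, below WT in both, with a log2 change of −0.52 (SE 0.29). *Rps14*, the gene of the 5q- syndrome, *Rps3*, *Rpsa*, *Rps29* and *Rps27a* had log2 changes of 0.21, 0.04, 0.22, −0.0032 and −0.10. Members with a pyrimidine run at the annotated start base (12) had a median log2 change at E9.5 of −0.05, those with a run near it (22) −0.15, and those without (24) −0.14.

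Paralogs and shared sequence limit some of these values, since fragments of near-identical copies can be divided among loci and the counting is not described as using strand. *Rpl22l1* made up 81.2 to 92.1% of the sum of *Rpl22* and *Rpl22l1*, with the 2 lowest shares in E9.5 cKO, and was 1244 and 1149 FPKM at E9.5 in WT and 522 and 642 in cKO. *Rpl36al* was 1404 and 1468 FPKM in WT and 358 and 652 in cKO at E9.5, while its X-linked parent *Rpl36a* was 2429 and 1709.8 in WT and 1779 and 1787 in cKO. The share of *Rps27l* in the sum with *Rps27* was, at E9.5, 15.2 and 17.1% in the WT libraries and 8.02 and 10.4% in the cKO libraries. *Rpl30* shares nearly its whole locus (GRCm38, chr15:34440508-34443276) with the row of *Gm12191*, which was 1426 and 999 FPKM in WT and 1006 and 1225 in cKO at E9.5. The sum of *Rpl30* and *Gm12191* had a log2 change of −0.30, against −0.93 for *Rpl30* alone, so the value of *Rpl30* is uncertain. *Rps15a* was between 54.1 and 96.8 FPKM, in the range of its pseudogene *Rps15a-ps4* (51.9 to 115 FPKM), and *Rps4l*, a transcribed pseudogene in RefSeq, made up 10.7 to 23.1% of its sum with *Rps4x*.

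Of 7 listed genes outside the naming rule (paralogs, fusion genes and associated factors), none was called in either genotype comparison, where at most 0.17% of all tested genes were called in either direction. With stage, *Rpl7l1* was called lower in WT (log2 change −0.85), and in cKO *Fau* was called higher (0.81) and *Rpl36al* and *Rpl7l1* lower (−1.52 and −1.07), where 46.7% of all tested genes were called lower in WT, and 2.05% higher and 28.5% lower in cKO. These stage calls were absent after quantile normalization. After median-ratio scaling 2 of the 7 were called higher and 0 lower in each genotype, where 3.2 (WT) and 3.99% (cKO) of all tested genes were called higher. Scaled to loci of at least 300 bp, 2 were called lower in WT, and 1 higher and 4 lower in cKO. Under that scaling 62.8% of all genes were called lower in WT, and 1.9% higher and 35.5% lower in cKO. *Rps3a1* was added to the listed genes, and the genes named here were singled out, after their values were seen. *Rps3a1*, a small subunit protein, was 2504 and 2558 FPKM at E9.5 in WT and 707 and 1832 in cKO (log2 change −1.15, SE 0.44, adjusted p = 0.260). *Fau*, in which a ribosomal protein is fused to a ubiquitin-like protein, was 3802 and 2546 FPKM in WT and 5345 and 4312 in cKO, a log2 change of 0.63 (SE 0.26). The paralog *Rpl36al* differed by −1.57 on the log2 scale (SE 0.38, adjusted p = 0.128), and *Rpl22l1* by −1.04 (SE 0.33, adjusted p = 0.192).

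On the deposited scale the median stage change of the ribosome assembly genes was below that of the ribosomal protein genes. Of 75 tested ribosome biogenesis genes (rRNA transcription, processing and subunit assembly), 53 were called lower with stage in WT hearts and 58 in cKO hearts, with 46.7 and 28.5% of all tested genes called lower, and none was called higher. These lower calls depended on the scaling: after median-ratio scaling 0 and 6 biogenesis genes (69 and 77 of all tested genes) were called lower, and after quantile normalization 0 and 3 (27 and 49), while scaled to loci of at least 300 bp 61 were called lower in each genotype (62.8 and 35.5% of all genes). The mitochondrial, translation factor, mTOR and LARP1 and p53 lists below had 0 lower calls after median-ratio scaling and after quantile normalization, except 1 mitochondrial gene in cKO after the latter. Scaled to loci of at least 300 bp, called lower in WT and cKO were 53 and 38 mitochondrial genes, 4 and 7 translation factors, 12 and 10 mTOR and LARP1 regulators, and 7 and 3 p53 checkpoint genes. The median log2 changes of the biogenesis genes on the deposited scale were −1.08 and −1.34. They were −0.10 and −0.69 after median-ratio scaling (all tested genes −0.04 and −0.05) and −0.23 and −0.67 after quantile normalization (−0.02 and −0.01). Scaled to loci of at least 300 bp they were −1.28 and −1.45 (−1.01 and −0.72). Mitochondrial ribosomal protein genes (77 tested) had 26 and 27 called lower and none higher, with medians of −0.69 and −0.72 that became 0.28 and 0.00088 after median-ratio scaling and −0.05 and −0.09 after quantile normalization. Translation factors and other mRNAs of the terminal oligopyrimidine class (23 tested) had 1 called higher in both genotypes, *Eef2* (0.78 and 1.16), and 0 and 5 lower (in cKO *Eif3e*, *Nap1l1*, *Eif2s3x*, *Cct4* and *Eif3m*). In WT the higher calls of this list numbered 0 after quantile normalization, 0 scaled to loci of at least 300 bp and 2 after median-ratio scaling. In cKO they numbered 1 under each. Of all genes, 0.878, 1.18 and 3.2% (WT) and 2.58, 1.9 and 3.99% (cKO) were called higher in that order. Of the mTOR and LARP1 regulators (22 tested), 10 were called lower in WT, and 8 lower and 1 higher (*Sesn2*) in cKO. Of the genes of the p53 checkpoint (10 tested), 1 was called lower in WT (*Mdm4*), and 3 lower (*Mdm2*, *Mdm4*, *Sesn1*) and 1 higher (*Cdkn1a*, 1.5) in cKO. The genes of these 3 lists were named after their values were seen. The largest called changes in these lists were those of the assembly factors *Mphosph10* (−2.03, SE 0.65), *Rpf2* (−2.03, SE 0.62) and *Ddx52* (−1.88, SE 0.53) in WT, and of *Rpf2* (−3.09, SE 0.62), *Pno1* (−2.77, SE 0.34) and the mitochondrial *Mrpl42* (−2.65, SE 0.44) in cKO. Rpf2 is the factor that brings the 5S rRNA with Rpl5 and Rpl11 into the large subunit precursor, and *Rpf2* was 49.5 and 40.0 FPKM (WT, E8.5), 30.7 and 41.5 (cKO, E8.5), 4.41 and 21.9 (WT, E9.5) and 4.80 and 2.20 (cKO, E9.5).

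No gene of these 5 lists was called between genotypes by limma at either stage on the deposited scale. At E9.5, 1 p53 checkpoint gene was called higher after quantile normalization and after median-ratio scaling, and 1 mTOR and LARP1 regulator after the latter. At an unadjusted p under 0.05, E9.5 cKO had 0 biogenesis genes higher and 26 lower, 0 and 8 translation factors, and 0 and 16 mitochondrial ribosomal protein genes. The mTOR and LARP1 regulators had 2 higher and 3 lower and the p53 checkpoint genes 1 and 0, where 5.27% of all tested genes were higher and 10.5% lower at that p. In E8.5 cKO the counts of the first 3 lists were 0 and 2, 0 and 0, and 0 and 2, where 0.26% of all tested genes were higher and 7.55% lower. At E9.5 the median log2 change, cKO minus WT, was −0.61 for ribosome biogenesis, −0.58 for translation factors and −0.34 for mitochondrial ribosomal proteins, −0.13 for the mTOR and LARP1 regulators and 0.05 for the p53 checkpoint, against −0.13 for the cytosolic members and −0.07 for all tested genes. After quantile normalization the medians at E9.5 were −0.48 for ribosome biogenesis, −0.28 for translation factors and −0.16 for mitochondrial ribosomal proteins, against −0.01 for all tested genes. Both cKO libraries lay below both WT libraries for 53 of 75 biogenesis genes, 15 of 23 translation factors and 50 of 77 mitochondrial ribosomal protein genes, where 31.1% of all tested genes did so.

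**Figure D5:**
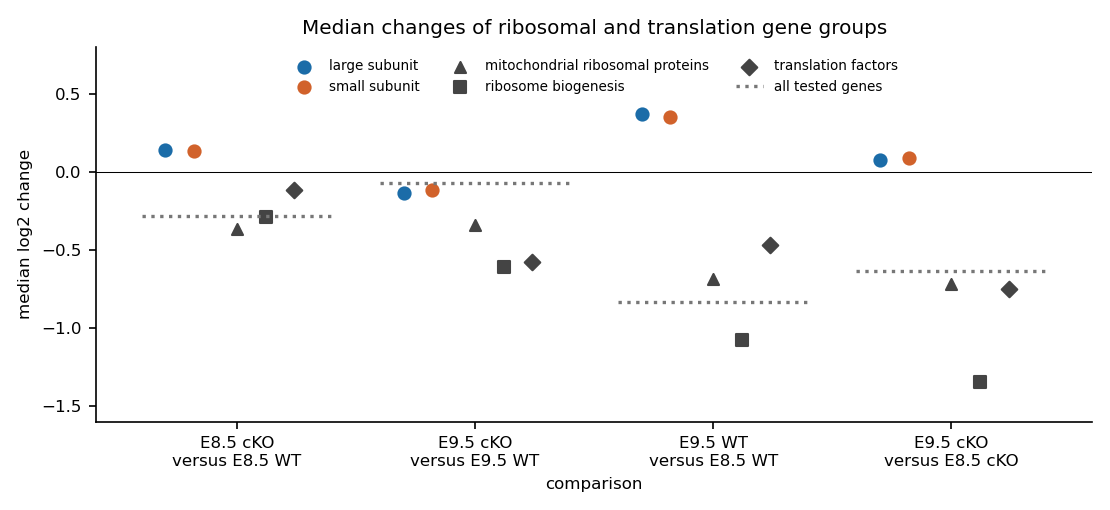
Median log2 change (vertical axis) of the tested genes of each group in the 4 comparisons (horizontal axis): large and small subunit genes (blue and orange circles), mitochondrial ribosomal proteins (triangles), ribosome biogenesis (squares), translation factors (diamonds) and all tested genes (dotted line). Both subunits are at 0.37 and 0.35 for WT E9.5 versus E8.5, where ribosome biogenesis is at −1.08 and all tested genes at −0.84 on the deposited scale.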

How the data were processed

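Total RNA of E8.5 and E9.5 mouse hearts was amplified with SMART chemistry and sequenced by the authors, who aligned reads to mm9 by BWA (a method they state); how FPKM was computed is not given in the sources used here. The deposited table holds FPKM for 24930 rows and 8 libraries, in 1 file; 0 value columns were left unused. Of the 285 repeated symbols none was a member, and the row with the highest mean was kept; 27 rows with symbols turned into dates were left as they were. Positions, read as 0-based starts, follow GRCm38 rather than mm9: all 81 members matched RefSeq by symbol and chromosome, 74 within 1000 bp of the start.

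Values were tested as log2(FPKM + 1) with limma 3.58.1 (lmFit, eBayes with trend) in R 4.3.3, as 1 model of the 4 groups over the 10018 genes whose mean reached 1 FPKM, two-sided, with Benjamini-Hochberg adjustment over all of them; a fold change on this scale understates the change of low genes. Calls needed an adjusted p under 0.05 and 1.5-fold. The script was tested on simulated data. Named were called genes, the 3 highest and lowest changes of each comparison, genes of fixed roles, the highest and lowest levels and the widest replicate gaps; a few genes that this rule names are not reported here. Members and lists were chosen with earlier results of these data known. GC content and length came from GENCODE mouse protein-coding transcripts by symbol, sequences from RefSeq. The study describes its replicates as biological, but which embryos, litters or sequencing runs gave each library is not stated, so p-values measure the spread between these libraries. The alternatives were another pseudocount, other filters and scalings, summed repeated symbols, no variance trend, fewer groups, a replicate block and leaving out each library; removal of the GC trend and a crossed pairing were added after the data were seen.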

Additional observations from a re-analysis of the deposited data

Results flagged for a closer look

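Short rows nested in ribosomal protein loci belong to small nucleolar RNAs and microRNAs, which the report's comparisons do not use. Of 34 such rows in 22 members, 30 were listed at 0 in all 8 libraries, and the other 4 were above 0 in 1 or 2 libraries. *Snora52*, within *Rplp2*, was 215 FPKM in E8.5 WT replicate 1 and 0 elsewhere. *Snord15a*, within *Rps3*, was 54.0 FPKM in E8.5 cKO replicate 1 and 0 in both E8.5 WT libraries. *Snord15b*, also within *Rps3*, was 92.5 FPKM in E9.5 cKO replicate 1 and 0 in both E9.5 WT libraries, although it was 51.2 FPKM in E8.5 WT replicate 1. *Snora62*, within *Rpsa*, was 1585 FPKM in E9.5 cKO replicate 2 and 0 in the other 7 libraries. *Snord15a*, *Snord15b* and *Snora62* are listed because 1 cKO library exceeded the controls of its stage. A row this short gains a large FPKM from few fragments, and the other cKO library of the same stage was at 0 in all 3 cases.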

How the results depend on the processing

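Of 996 values recomputed for 53 results, 877 were counted as unchanged. Single genes gave 618 of the 996, of which 539 kept their direction and their side of the threshold. Of the single-gene values, 58 lost the threshold, 7 gained it and 14 turned sign. Among the medians and gene counts, 40 values moved. Turns of sign were counted for single genes only, so a median counted as unchanged may have changed sign. The cause of a shift was not tested unless the alternative's construction shows it. Changing the pseudocount to 0.1 moved none. Members called higher with stage in WT (3) numbered 0 without a filter (more genes to adjust over), after quantile normalization and with only loci of at least 300 bp in the total, 43 after median-ratio scaling (3.2% of all tested genes), 5 in a fit of the compared groups alone (1.84%) and 34 of 77 with the GC trend removed (3.39%). Members called lower in cKO (3) numbered 0 without a filter, after quantile normalization, median-ratio scaling and removal of the GC trend, and in the fit of the compared groups alone; higher calls there (0) became 6 after median-ratio scaling (3.99% of all tested genes) and 1 with the GC trend removed (2.93%). The relative medians were 0.72 (WT stage) and 0.26 (cKO stage) without a filter, and −0.10 (E8.5 genotype), −0.16 (WT stage), −0.14 (cKO stage) and 0.067 (interaction) after quantile normalization, where large minus small was 0.069 at E8.5 and 0.18 for the WT stage. Signs turned for *Rpl39l* (0.046) and *Rpl22* (0.15) in the WT stage comparison after quantile normalization, for *Rps25* (0.00616), *Rpl22* (0.018) and *Rps15a* (0.055) at E8.5 and *Rps2* (0.12) and *Rpl22* (0.70) in the WT stage comparison after median-ratio scaling, and, with the GC trend removed, for *Rps15a* at E8.5 (0.014), *Rpl39l* (0.38) and *Rpl22* (0.49) in the WT stage comparison and *Rps18* in the interaction (−0.077).

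Leaving out each library gave 0 to 3 higher calls and 0 to 1 lower in the WT stage comparison, 0 to 3 lower in the cKO stage comparison and 0 for every other count. The relative medians ranged from 0.21 to 0.63 (E8.5), −0.30 to 0.16 (E9.5), 0.95 to 1.39 (WT stage), 0.51 to 0.87 (cKO stage) and −0.74 to −0.27 (interaction), and large minus small from −0.065 to 0.0030 (E8.5), −0.05 to 0.03 (E9.5), −0.0019 to 0.03 (WT stage), −0.093 to 0.0028 (cKO stage) and −0.063 to 0.081 (interaction). The E9.5 relative median turned positive without E9.5 WT replicate 1. At E8.5, *Rps15a* ranged from −0.66 to 0.066, *Rpl39l* from −0.23 to 1.58 and *Rps2* from −0.24 to 2.29.

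Replicate numbers shared between groups carry no stated pairing, and deviations of same-numbered libraries correlated at −0.12 to 0.02 over genes. A replicate block gave 2 higher calls in the WT stage comparison (*Rps26* lost) and 3 lower in the cKO stage comparison, and changed no other call; the crossed pairing also gave 2 and 0 in WT. FPKM without counts leaves depth, and with it the error of low members such as *Rpl39l*, unknown.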
